A study of Mus musculus with 6 samples.

Results

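The myogenic regulatory factors (MRF) and the myocyte enhancer factors 2 (MEF2) were followed across 6 mRNA libraries of C2C12 cells, mouse myoblasts that form myotubes once their serum is cut back. The 7 genes are Myod1, Myf5, Myog and Myf6 of the MRF family and Mef2a, Mef2c and Mef2d of the MEF2 family. They were taken by symbol from the deposited expression table, in which they are 7 of 20950 entries. One library came from growing cells in DMEM with 10% FBS (fetal bovine serum). The other libraries came from cells moved to differentiation medium at near confluence, with 1 library each for 2% HS (horse serum), 2% HS + exosome and 0.2% FBS, and 2 libraries, replicates 1 and 2, for 0.2% FBS + exosome. The added exosomes had been isolated from FBS and were given in the amount that 10% FBS holds. All libraries come from the same cell line, without a transgene or knockdown, and nothing in the labels says whether replicates 1 and 2 were separate cultures, so their spread may be technical. The study asked how exosomes of serum act on differentiating myogenic cells.

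MRF proteins are basic helix-loop-helix factors that bind the E-box as partners of the E proteins. Myod1 and Myf5 commit cells to the muscle lineage, Myog drives the entry into terminal differentiation, and Myf6 (MRF4) acts mainly in later myofibres. MEF2 proteins are MADS-box factors that cannot start the muscle programme on their own but raise the activity of the MRF proteins at muscle genes. Id proteins hold the MRF proteins in check by taking their E protein partners, and class IIa histone deacetylases repress MEF2.

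The values are FPKM, reads divided by the length of the transcript and by the depth of the library, so levels of different genes can be set side by side within a library. Depth was estimated from the spacing of low FPKM values at between 33700000 and 39500000 reads a library. The muscle markers Des, Cdh15, Chrna1, Myh3 and Ttn were present in all 6 libraries, with a lowest value of 14.96 FPKM for Ttn. Of 17 markers of fat, blood, endothelium, epithelium, neuron and smooth muscle, 16 were found in the table, Hba-a1 being the other. Of those found, 14 stayed at or below 0.607 FPKM in every library. The exceptions were Lep at 1.01 to 1.62 FPKM and the smooth muscle marker Smtn at 25.0 to 33.9 FPKM. The source of the Smtn RNA was not tested. In such bulk RNA, fewer cells of a type and less RNA per cell cannot be told apart.

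The bases before 3 of the genes are shown first, since Myog carries the binding letters of both families and Myf5 and Mef2c were the members whose RNA moved most. Each run is the 250 bases before the RefSeq start, 5′ to 3′ on the strand of the gene, in build GRCm38.p6. The RefSeq promoter table had entries for 5 of the 7 genes, with none for Myod1 and Myf6. Capitals mark E-boxes (CANNTG), the MEF3 motif (TCAGGTTTC) and a MEF2 box.
Myog: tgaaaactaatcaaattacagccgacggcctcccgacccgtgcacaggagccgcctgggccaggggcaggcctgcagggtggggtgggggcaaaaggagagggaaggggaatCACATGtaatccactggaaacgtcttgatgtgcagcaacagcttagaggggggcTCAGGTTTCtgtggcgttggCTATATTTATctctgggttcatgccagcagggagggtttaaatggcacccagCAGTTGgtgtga
Myf5: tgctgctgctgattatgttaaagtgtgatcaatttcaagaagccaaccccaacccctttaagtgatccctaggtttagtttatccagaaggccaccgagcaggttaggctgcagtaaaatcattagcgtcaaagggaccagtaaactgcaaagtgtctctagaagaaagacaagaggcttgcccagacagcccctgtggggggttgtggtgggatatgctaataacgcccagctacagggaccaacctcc
Mef2c: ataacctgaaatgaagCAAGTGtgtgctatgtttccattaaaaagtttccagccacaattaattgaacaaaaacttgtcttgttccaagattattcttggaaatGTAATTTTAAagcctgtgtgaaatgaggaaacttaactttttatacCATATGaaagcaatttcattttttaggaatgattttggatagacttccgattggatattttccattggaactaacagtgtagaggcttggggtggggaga

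The Myog run lies at chr1:134289754-134290003 on the plus strand. It holds the E-boxes CACATG at -138 and CAGTTG at -12, a MEF3 motif at -84 and a MEF2 box, CTATATTTAT, at -64, counted from the base before the start as -1 and given for the first base of each. The GENCODE start of Myog, at base 134289989, comes before the RefSeq start used here, so the end of the run, with CAGTTG, lies inside the gene in that annotation. Both strands were searched, and no marked motif overlaps another. This MEF2 box differs from the strict consensus in its last base, so a looser form with 1 free outer base was searched after the Myog sequence had been seen. Over the 250 bases before 32851 mouse starts, 66.22% held an E-box, 7.03% the looser MEF2 box, 2.92% the strict one and 0.39% the MEF3 motif. The Myf5 run, at chr10:107486135-107486384 on the minus strand, holds none of these letters. The Mef2c run, at chr13:83503784-83504033 on the plus strand and before the first of 3 starts in the table, holds the E-boxes CAAGTG at -234 and CATATG at -100 and a loose MEF2 box, GTAATTTTAA, at -146. These are matches of letters, and no library of the series measured binding there. The Mef2c run is the one of its 3 with the most matches, since the second has none and the third only an E-box, CAGATG at -245, and the runs of Mef2a and Mef2d, searched likewise, have none.

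Myog was the most abundant member in all 6 libraries. In growing cells it stood at 512 FPKM, and differentiating cells without exosomes had 564 (2% HS) and 663 FPKM (0.2% FBS). With exosomes it was 720 FPKM in 2% HS, the highest of the 6 values, while the exosome replicates of 0.2% FBS, at 350 and 401 FPKM, had the lowest of the 6. Growing cells thus held Myog RNA well above that of Myod1, beside 738 FPKM of Myh3, the embryonic myosin of differentiating muscle. Myog is a gene of 1 annotated transcript at chr1:134289989-134292548 on mm10 (GENCODE vM21).

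Myod1 was the steadiest of the 3 MRF genes above background. Its levels were 83.7 FPKM in 10% FBS, 97.2 in 2% HS, 91.0 in 2% HS + exosome, 110 in 0.2% FBS, and 87.6 and 101 in replicates 1 and 2 of 0.2% FBS + exosome. The whole range was 0.40 on the log2(FPKM + 1) scale, against 1.04 for Myog and 1.41 for Myf5. Myod1 lies at chr7:46376474-46379099 on the plus strand.

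Myf5 varied more than the other MRF genes above background. It stood at 12.2 FPKM in 10% FBS, 6.50 in 2% HS, 4.22 in 2% HS + exosome, 5.39 in 0.2% FBS, and 10.1 and 12.9 in replicates 1 and 2 of 0.2% FBS + exosome. The 3 values of 10.1 FPKM and above belong to growing cells and to 0.2% FBS + exosome, and the other 3 are at most 6.50 FPKM. Myf5 lies at chr10:107482908-107486134 on the minus strand.

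Myf6, whose annotated gene lies 6718 bases from Myf5 on the same strand, at chr10:107492853-107494737, was near background. Its values were 0.315, 0.172, 0.224 and 0.181 FPKM in 10% FBS, 2% HS, 2% HS + exosome and 0.2% FBS, and the 0.2% FBS + exosome replicates had 0.0541 and 0.226 FPKM. With the estimated depths this is 2.0 to 13.2 reads a library, too few to compare conditions. It fell under the limit of a mean of 1 FPKM and was left out of the tests, so 6 of the 7 members were tested. The other 3 MRF genes rest on at least an estimated 271 reads in every library.

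Among the MEF2 genes, Mef2a had the highest level in every library. It stood at 103 FPKM in 10% FBS, 85.4 in 2% HS, 116 in 2% HS + exosome, 102 in 0.2% FBS, and 74.4 and 75.04 in replicates 1 and 2 of 0.2% FBS + exosome, its lowest values. Its exons on chr7:67231163-67372858 overlap Lysmd4 on the other strand, and 2.56% of its 75-base stretches occur in other transcripts. Lysmd4 itself was at 2.05 to 3.49 FPKM, and whether the counting used the strand is not given in the sources used here.

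Mef2d was the second MEF2 gene, with 31.9 FPKM in 10% FBS, 33.2 in 2% HS, 29.7 in 2% HS + exosome, 42.0 in 0.2% FBS, and 33.7 and 27.1 in replicates 1 and 2 of 0.2% FBS + exosome. The replicates of 0.2% FBS + exosome enclose the values of 10% FBS, 2% HS and 2% HS + exosome. Mef2d, at chr3:88142372-88172086, shares 7.29% of its 75-base stretches with 1700113A16Rik, which overlaps it on the other strand.

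Mef2c was the least abundant and the most variable of the MEF2 members, with a range of 1.69 on the log2(FPKM + 1) scale. It stood at 6.24 FPKM in 10% FBS, 8.20 in 2% HS, 12.2 in 2% HS + exosome, 13.4 in 0.2% FBS, and 4.39 and 3.48 in replicates 1 and 2 of 0.2% FBS + exosome. Its lowest values are those of 0.2% FBS + exosome, under that of growing cells. Mef2c, at chr13:83504034-83667080, has 31 annotated transcripts and shares no 75-base stretch with another gene, and the table holds 1 value for all of its transcripts. Mef2b, the remaining MEF2 gene, was at most 0.449 FPKM.

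**Figure D1:**
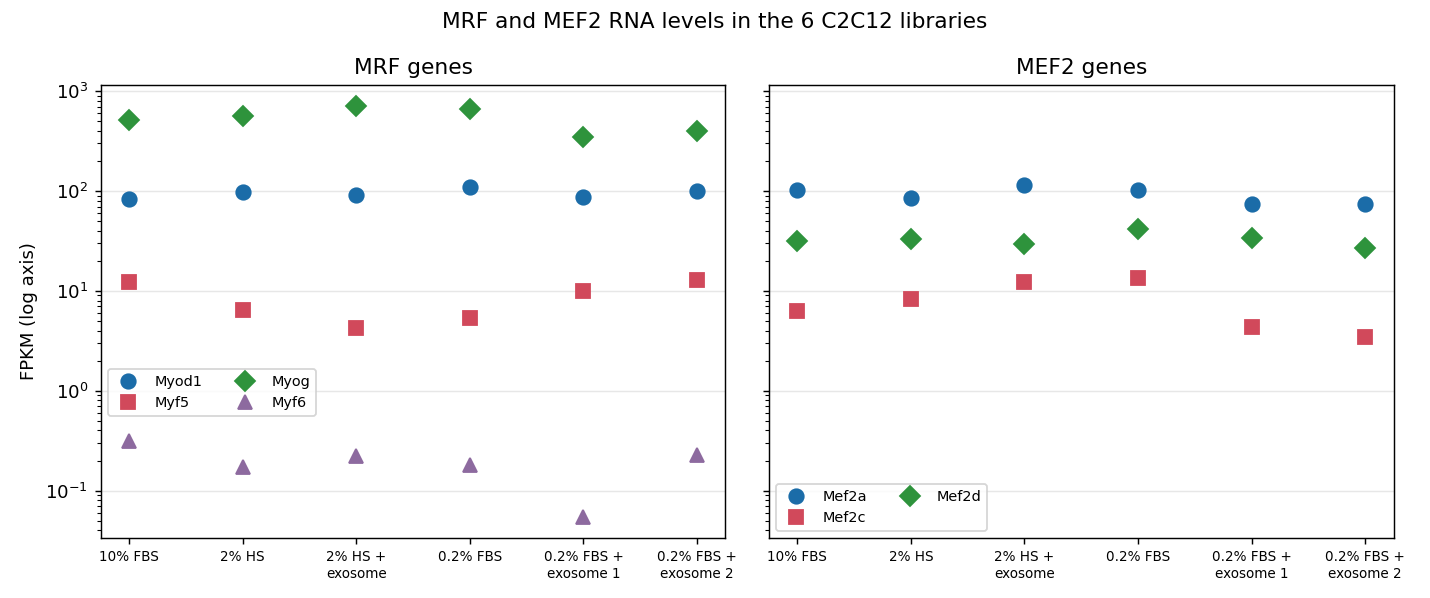
FPKM of the 4 MRF genes (left) and the 3 MEF2 genes (right) in each of the 6 libraries, on a log axis; each point is 1 library, and exosome 1 and 2 are the replicates of 0.2% FBS + exosome. Myog lies on top at 350 to 720 FPKM, Myf6 stays at or under 0.315 FPKM, and in growing cells and 0.2% FBS + exosome Myf5 has its 3 highest and Mef2c its 3 lowest values.

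The order of the levels was Myog first in every library, then Myod1 and Mef2a, then Mef2d, then Myf5 and Mef2c, and Myf6 last. Myod1 and Mef2a changed places between libraries. Mef2a was the higher in 10% FBS and 2% HS + exosome, with Mef2a to Myod1 ratios of 1.23 and 1.28, and Myod1 in the other 4, with ratios of 0.744 to 0.927. Myf5 and Mef2c changed places as well. Within the families, Myog made up 77.9% to 88.3% of the summed MRF FPKM, and Mef2c 3.28% to 8.51% of the summed MEF2 FPKM, with the lowest shares of both in 0.2% FBS + exosome and the highest in 2% HS + exosome for Myog and in 0.2% FBS for Mef2c.

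The serum reductions set low-serum libraries without exosomes against growing cells, so serum level and stage of culture cannot be told apart. In 2% HS the kind of serum differs as well. A change is given as the difference of log2(FPKM + 1), which understates changes of low genes, and a gene was counted as past the limit when it differed by more than 1, in each replicate where there are 2. From 10% FBS to 0.2% FBS, 1 of the 7 members passed, Myf5 with a change of -1.05, against 2.48% of the 10731 genes that averaged 1 FPKM or more. Mef2c, at 1.00 when rounded, lay just under the limit. Relative to the ribosomal protein gene Rpl13a, Mef2c passed, at 1.30, and Myf5, at -0.74, did not. Myod1, Myog and Mef2d had changes of 0.40, 0.37 and 0.39. From 10% FBS to 2% HS, 0 of the 7 passed, against 2.31% of all genes, with -0.82 for Myf5 as the largest difference and 0.35 for Mef2c.

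Mef2a had changes of -0.01 in 0.2% FBS and -0.27 in 2% HS, and both turn positive, to 0.33 and 0.29, relative to the ribosomal protein gene Rpl13a. In limma, which takes the spread of the single libraries from the 2 replicates of 0.2% FBS + exosome, 0 of the 6 tested members passed an adjusted p of 0.05 in either serum reduction, against 0.0186% of all genes in 0.2% FBS and 0.513% in 2% HS. At an unadjusted p under 0.05 there were 2 of 6 in 0.2% FBS, Myf5 and Mef2c, against 17.7% of all genes, and 1 of 6 in 2% HS, Myf5, against 16.8%. With the libraries scaled to their 75th percentile, Myf5 and Mef2c passed in 0.2% FBS, with limma adjusted p of 0.0321 and 0.0343, against 2.89% of all genes in that scaling.

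With exosomes in 0.2% FBS, Mef2c was lower and Myf5 higher. Mef2c fell from 13.4 FPKM to 3.93 ± 0.641 FPKM (SD, n = 2), a log2 change of -1.56 (SE 0.18, limma adjusted p = 0.00655), with -1.42 in replicate 1 and -1.69 in replicate 2. Myf5 rose from 5.39 FPKM to 11.5 ± 1.98 FPKM (SD, n = 2), a log2 change of 0.96 (SE 0.19, limma adjusted p = 0.0196), with 0.79 and 1.12 in the replicates. Both libraries of 0.2% FBS + exosome lie outside the 0.2% FBS value by more than their own spread in these 2 genes, but the control is a single library. The same library ends the comparison of serum reduction to 0.2% FBS, so the changes in these 2 comparisons are not independent.

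The limma calls of Mef2c and Myf5 ended in 3 of the 6 other settings, in which limma called 0, 0 and 0.951% of all genes. These were all genes above 0 in any library, values below 1 FPKM raised to 1, and levels relative to Rpl13a, with adjusted p of 0.0653 to 0.243 for Mef2c and 0.135 to 1.0 for Myf5, while the direction stayed the same in all of them. By the fold limit Mef2c passed in each replicate, as 1 of 7 members, against 2.51% of all genes in either direction, 1.61% lower and 0.895% higher. Myf5 passed in replicate 2 only. By limma, 2 of the 6 tested members passed, against 12.5% of all genes, of which 4.32% lower and 8.20% higher.

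The other tested members did not pass limma with exosomes in 0.2% FBS. At an unadjusted limma p under 0.05 there were 5 of the 6 tested members, all but Myod1, against 31.5% of all genes. Myog went from 663 FPKM to 376 ± 36.3 FPKM (SD, n = 2), a change of -0.82 (limma adjusted p = 0.120). Myog passed in 1 of the 6 other settings, limma without a trend, with an adjusted p of 0.0380, and over the rest its adjusted p was 0.0544 to 0.278. Mef2a went from 102 to 74.7 ± 0.474 FPKM (SD, n = 2), a change of -0.45 (limma adjusted p = 0.145). Mef2d changed by -0.46 (limma adjusted p = 0.132) and Myod1 by -0.23 (limma adjusted p = 0.472). Myog, Mef2a, Mef2d, Mef2c and Myod1 were below the 0.2% FBS value in each replicate, 5 of the 7 members, as were 27.55% of all genes tested. Myf5 was above it in each replicate, as were 55.20% of all genes. The median change was -0.46 over the 6 tested members and 0.14 over the 10731 genes. A scaling to the 75th percentile moved the median of all genes to 0.04 and levels relative to Rpl13a moved it to -0.09. Less the median of all genes, Myog changed by -0.97 and -0.99 in these scalings, Mef2c by -1.69 and -1.68, and Myf5 by 0.82 in each.

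In 2% HS, with 1 library on each side, the exosome library differed in the opposite direction for several members. The changes were 0.52 for Mef2c, 0.44 for Mef2a, 0.35 for Myog, -0.52 for Myf5, -0.15 for Mef2d and -0.09 for Myod1. The median of all genes was -0.04 here and 0.14 in 0.2% FBS. By the fold limit 0 of 7 passed, against 0.652% of all genes, and 0 of 6 passed limma, against 0.0839%, with 2 at an unadjusted p under 0.05, Myf5 and Mef2c, against 4.72% of all genes. Subtracting the effect in 2% HS from that in 0.2% FBS gave -2.07 for Mef2c (SE 0.27, limma adjusted p = 0.0185). The same difference was 1.48 for Myf5 (limma adjusted p = 0.0545), -1.17 for Myog (limma adjusted p = 0.238) and -0.89 for Mef2a (limma adjusted p = 0.155). Mef2c was thus 1 of 6 tested members to pass, against 1.16% of all genes. Its call ended in the same 3 settings, with limma adjusted p of 0.293 to 0.814. At an unadjusted limma p under 0.05 there were 4 of 6, Mef2c, Myf5, Myog and Mef2a, against 19.5% of all genes. Myf5 passed with a pseudocount of 0.1 and with the 75th percentile scaling, with limma adjusted p of 0.0437 and 0.0241.

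When a single exosome effect was fitted over the 5 libraries of both differentiation media, limma called 0 of the 6 members, with adjusted p of 0.705 to 0.928 and 0 at an unadjusted p under 0.05. Over all genes that fit called 0 as well, with 709 (6.61%) at an unadjusted p under 0.05.

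**Figure D2:**
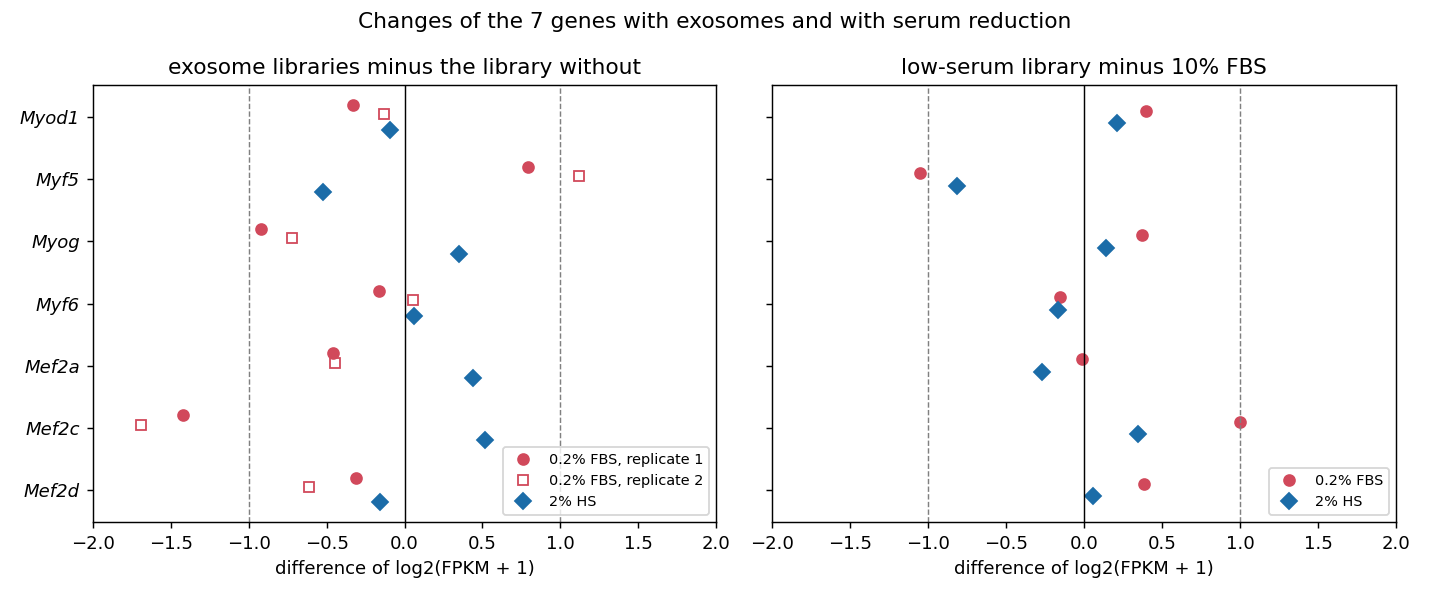
Differences of log2(FPKM + 1) for the 7 genes, with the exosome libraries minus the library without exosomes of the same medium on the left and the low-serum libraries minus 10% FBS on the right; each point is 1 library minus 1 library, and dashed lines mark a difference of 1. In 0.2% FBS Mef2c lies beyond -1 in each replicate (-1.42 and -1.69) and at 0.52 in 2% HS, while Myf5 lies at 0.79 and 1.12 and at -0.52.

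Set against growing cells, 0.2% FBS + exosome was near 10% FBS for Myf5, with a change of -0.09, for Mef2d, with -0.08, and for Myod1, with 0.17. Myog, Mef2a and Mef2c were at -0.45, -0.46 and -0.56. By the fold limit 0 of 7 passed, against 0.214% of all genes, and limma called 0 of 6, against 0.0652%, with 2 at an unadjusted p under 0.05, Mef2a and Mef2c, against 11.5% of all genes. A p that misses the limit does not show that the levels were the same.

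Between the 2 media with exosomes, Mef2c and Myf5 differed. For 0.2% FBS + exosome minus 2% HS + exosome, Mef2c was at -1.42 (SE 0.18, limma adjusted p = 0.00409) and Myf5 at 1.25 (SE 0.19, limma adjusted p = 0.00644). Both passed the fold limit in each replicate, 2 of 7 members against 3.20% of all genes, and they were the 2 of 6 that passed limma, against 18.2% of all genes. Both limma calls ended in the 3 settings named above. Mef2a at -0.63 (limma adjusted p = 0.0516) and Myog at -0.94 (limma adjusted p = 0.0721) missed the limma threshold. At an unadjusted limma p under 0.05 there were 4 of 6, Mef2c, Myf5, Mef2a and Myog, against 35.9% of all genes. Scaled to the 75th percentile, Myog and Mef2a passed too, with limma adjusted p of 0.0312 and 0.0179, and without a trend, with 0.0236 and 0.0465. Myog also passed relative to Rpl13a (limma adjusted p = 0.0318) and Mef2a with a pseudocount of 0.1 (limma adjusted p = 0.0491). Myf5 fell under the fold limit relative to Rpl13a, at 0.97, where Mef2c was at -1.70 and Myog at -1.26. Without exosomes, 0.2% FBS minus 2% HS gave 0 of 7 past the limit, against 0.531% of all genes. Limma called 0 of 6 there, and 0 of all genes, with 1 at an unadjusted p under 0.05, Mef2c at 0.65, against 3.95% of all genes.

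Ratios of members within a library do not depend on depth or scaling. Mef2c was below Myf5 in 10% FBS, with a Mef2c to Myf5 ratio of FPKM of 0.511, and above it in 2% HS, 2% HS + exosome and 0.2% FBS, with 1.26, 2.88 and 2.49. In replicates 1 and 2 of 0.2% FBS + exosome the ratio was 0.435 and 0.270, again below 1. The sign therefore separates growing cells and 0.2% FBS + exosome from the other 3 libraries. The Myog to Myf5 ratio gave the same split, with 41.9 in 10% FBS, 86.7, 170 and 123 in 2% HS, 2% HS + exosome and 0.2% FBS, and 34.7 and 31.2 in the replicates. Both ratios hold Myf5, whose own levels already split the libraries this way, so they are no separate support for it. The pairs were chosen with earlier results of these data known.

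The Myog to Myod1 ratio was 6.11 in 10% FBS, 5.80 in 2% HS and 5.998 in 0.2% FBS, and 7.91 in 2% HS + exosome. It was 3.996 and 3.98 in the replicates of 0.2% FBS + exosome. Here growing cells lie with the differentiating libraries without exosomes, unlike in the ratios to Myf5. The Mef2c to Mef2a ratio ranged from 0.0464 in replicate 2 of 0.2% FBS + exosome to 0.131 in 0.2% FBS, with 0.0604 in 10% FBS and 0.0590 in replicate 1.

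**Figure D3:**
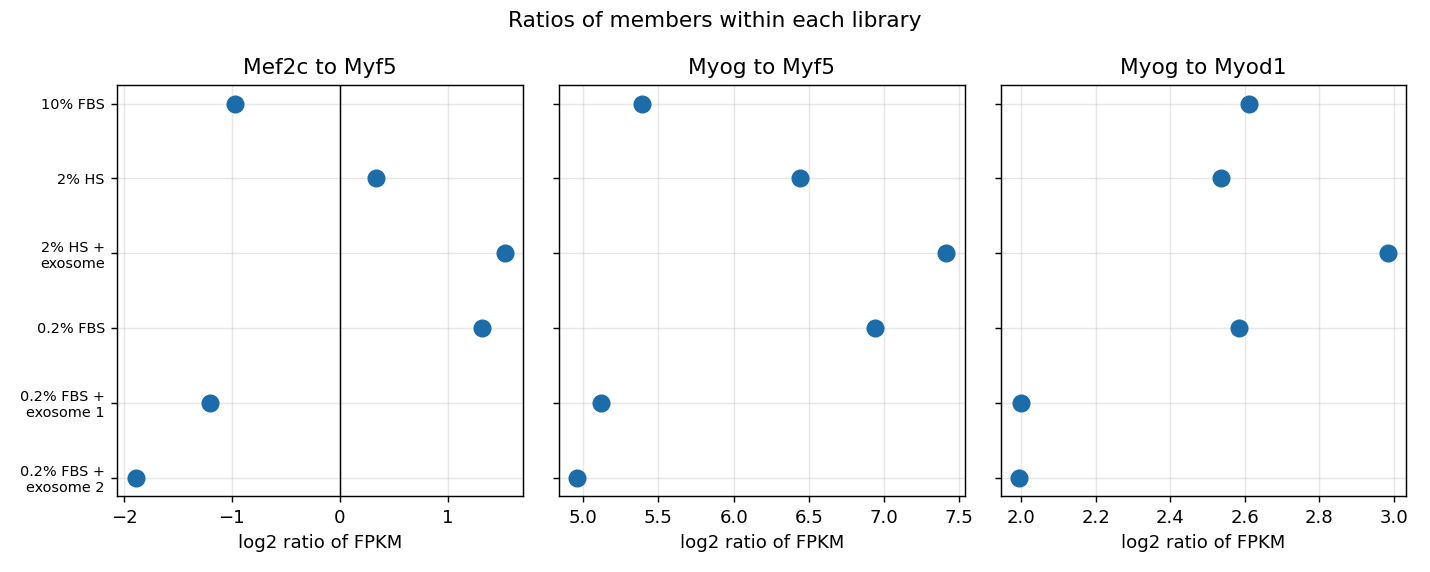
Log2 ratios of FPKM between 2 members within each library, for Mef2c to Myf5, Myog to Myf5 and Myog to Myod1, each on its own axis; each point is 1 library, and the line at 0 marks equal levels. Mef2c is above Myf5 in 2% HS, 2% HS + exosome and 0.2% FBS, and below it in growing cells and in each replicate of 0.2% FBS + exosome.

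Genes whose profile over the 6 libraries came nearest to a member were sought for the 3 members with a range above 1, Myf5, Myog and Mef2c. Distance was the root mean square difference of log2(FPKM + 1) after each gene's own mean was taken off. Nearest to Myf5 were Chst2, S100a4 and Rab13, with distances of 0.076, 0.085 and 0.099, against a spread of Myf5 about its own mean of 0.54. S100a4, a calcium-binding protein, did so at 1014 to 2755 FPKM. Nearest to Myog were Acsl1, Usp28 and Odc1, with distances of 0.051, 0.076 and 0.080 against a spread of 0.37. Odc1, the first enzyme of polyamine synthesis, ran from 41.2 to 89.8 FPKM.

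Nearest to Mef2c were Rbm24, Tead4 and Nrap, with distances of 0.11, 0.11 and 0.13 against a spread of 0.62. Rbm24 encodes a muscle RNA-binding protein, Tead4 a transcription factor of muscle genes and Nrap a protein of myofibril assembly. Rbm24 was highest in 0.2% FBS, at 14.0 FPKM, with 13.5 FPKM in 2% HS + exosome, and the 0.2% FBS + exosome replicates had 5.33 and 4.77 FPKM. The nearest of 10731 profiles over 6 libraries are close by selection, so the distances are a description.

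**Figure D4:**
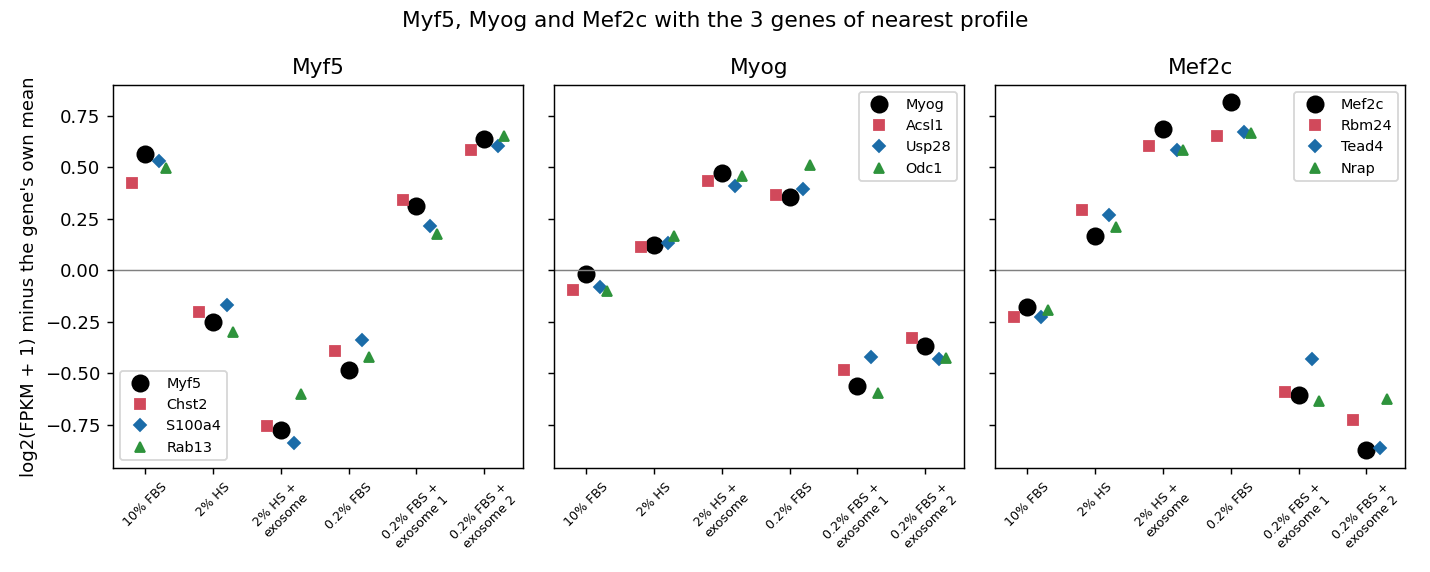
Log2(FPKM + 1) minus each gene's own mean over the 6 libraries, for Myf5, Myog and Mef2c (black) and the 3 genes nearest to each (coloured); each point is 1 library. The points of a panel lie close in every library, with distances of 0.051 to 0.13 between a member and its nearest genes.

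Partners and inhibitors of the MRF proteins were described by lists, as counts and medians beside those of all genes. The 3 E proteins, Tcf3, Tcf4 and Tcf12, had a median change of 0.45 with exosomes in 0.2% FBS, against 0.14 over all genes. By limma 0 of 3 passed, with adjusted p of 0.0815 to 0.161, against 12.5% of all genes. Tcf12, the most abundant, stood at 49.0 FPKM in 10% FBS, 33.2 in 2% HS, 34.1 in 0.2% FBS, and 41.7 and 49.9 in the replicates with exosomes.

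Of 6 Id and I-mfa genes, 4 reached a mean of 1 FPKM and 3 of these rose with exosomes in 0.2% FBS by limma, against 8.20% of all genes, with a median change of 0.87 over the 4. Without a trend limma called 1 of the 4. Id3, an inhibitor that takes E proteins from the MRF proteins, stood at 65.9 FPKM in 10% FBS, 8.50 in 2% HS, 7.80 in 2% HS + exosome and 15.0 in 0.2% FBS. The exosome replicates of 0.2% FBS had 37.9 and 123 FPKM, a log2 change of 2.12 (SE 0.53, limma adjusted p = 0.0375) that differed between replicates, with 1.28 and 2.96. Id3 is also the gene of this list past the limit in both serum reductions, with -2.06 in 0.2% FBS and -2.82 in 2% HS. The other 2 that passed, Id1 at 1.12 and Mdfic at 0.62, are named after their values were seen. With exosomes in 2% HS, Id2 was past the limit in the other direction, at -1.12, from 8.32 to 3.29 FPKM in 1 library each, and it is likewise named after its value was seen.

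Repressors that bind E-boxes or their factors gave 3 of 10 tested genes that rose by limma with exosomes in 0.2% FBS, against 8.20% of all genes, and 2 of 10 past the fold limit in each replicate, against 0.895%. Twist2 went from 2.51 FPKM to 6.83 and 7.31 FPKM (log2 change 1.20, limma adjusted p = 0.00846) and Snai2 from 8.88 to 19.4 and 21.5 FPKM (log2 change 1.12, limma adjusted p = 0.00863). Twist1, at 0.80, was the third by limma and is named after its value was seen. Hey1, a Notch target, passed the limit in both serum reductions, with -1.34 and -1.32. With exosomes in 0.2% FBS it was at 0.93 (limma adjusted p = 0.0948), with 0.48 in replicate 1 and 1.38 in replicate 2. The median of the 10 was 0.51.

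Of 16 upstream factors of the MRF genes, 9 were tested, and with exosomes in 0.2% FBS 3 rose and 1 fell by limma, against 8.20% and 4.32% of all genes. The list was shortened after its values were known, so its counts and median only describe the genes kept. Their median change was 0.09, and it turned to -0.01 with scaling to the 75th percentile and to -0.15 relative to Rpl13a. The 3 that rose were Six4, Six5 and Eya1, with changes of 0.86, 0.86 and 0.98, named after their values were seen. Six4 went from 6.96 FPKM in 0.2% FBS to 15.2 and 11.8 FPKM in the replicates with exosomes (limma adjusted p = 0.0257), beside 14.8 FPKM in growing cells. Tead4 fell from 29.3 to 13.1 and 9.45 FPKM (log2 change -1.32, limma adjusted p = 0.0101). Pitx3 passed the limit in both serum reductions, with -1.02 and -1.16. Pax7, the factor of satellite cells, was at most 0.623 FPKM and Pax3 at most 0.0651 FPKM.

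Of the class IIa histone deacetylases that repress MEF2, 3 of 4 were tested, with a median change of 0.42 with exosomes in 0.2% FBS. Hdac7 was the 1 of 3 that rose by limma, against 8.20% of all genes, from 8.10 to 18.3 and 14.2 FPKM (log2 change 0.91, adjusted p = 0.0228), and Hdac5 was at 0.42 (limma adjusted p = 0.127). None of the lists of partners, inhibitors, repressors and upstream factors had a limma call in the exosome comparison of 2% HS, which has 1 library on each side. Over all genes limma called 0.0839% there.

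Textbook target genes of the MRF and MEF2 factors were mostly lower with exosomes in 0.2% FBS. All 19 were tested, and 8 fell by limma, against 4.32% of all genes, and 0 rose. Past the limit were 10 of 19, all lower, against 1.61% of all genes, and the median change was -1.13 against 0.14 over all genes. The largest differences were those of Tnni2, Xirp1, Mylpf and Myh3. Tnni2, a troponin of fast fibres, went from 1459 FPKM to 522 and 338 FPKM (log2 change -1.79, limma adjusted p = 0.0284). Xirp1 went from 42.7 FPKM to 16.1 and 8.77 FPKM (log2 change -1.76, limma adjusted p = 0.0125).

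Mylpf and Myh3, the fast regulatory light chain and embryonic myosin, were at -1.75 and -1.58, with limma adjusted p of 0.144 and 0.0586. Cdh15, the muscle cadherin and a marker of myoblasts as well, was the exception among the 19, at 0.27 and 0.31 in the replicates. In 2% HS the median of the 19 with exosomes was -0.11, against -0.04 over all genes. There 0 were past the limit and 0 passed limma, against 0.652% and 0.0839% of all genes. With serum reduction the median of the 19 was 1.04 in 0.2% FBS and 1.02 in 2% HS. In each, 10 of 19 were past the limit, all higher, against 2.48% and 2.31% of all genes in either direction. By limma 0 of the 19 passed in either serum reduction, against 0.0186% and 0.513% of all genes.

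Under scaling to the 75th percentile the list calls by limma in 0.2% FBS were 3 Id and I-mfa genes, 3 repressors, 3 rising and 1 falling upstream factor, 1 class IIa histone deacetylase and 14 falling targets, against 7.48% of all genes lower and 7.97% higher. With all genes above 0 in the fit, and with values below 1 FPKM raised to 1, these lists had 0 calls, as had the whole table. Relative to Rpl13a 8 targets were called lower, against 0.857% of all genes, and none of the regulators, against 0.0932% higher. Without a trend the calls were 1 Id and I-mfa gene, 3 repressors, 3 rising and 1 falling upstream factor, 1 class IIa histone deacetylase and 16 falling targets, against 3.84% of all genes lower and 5.79% higher. Except for the upstream factors, the medians of these lists kept their direction with exosomes in 0.2% FBS under both scalings.

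**Figure D5:**
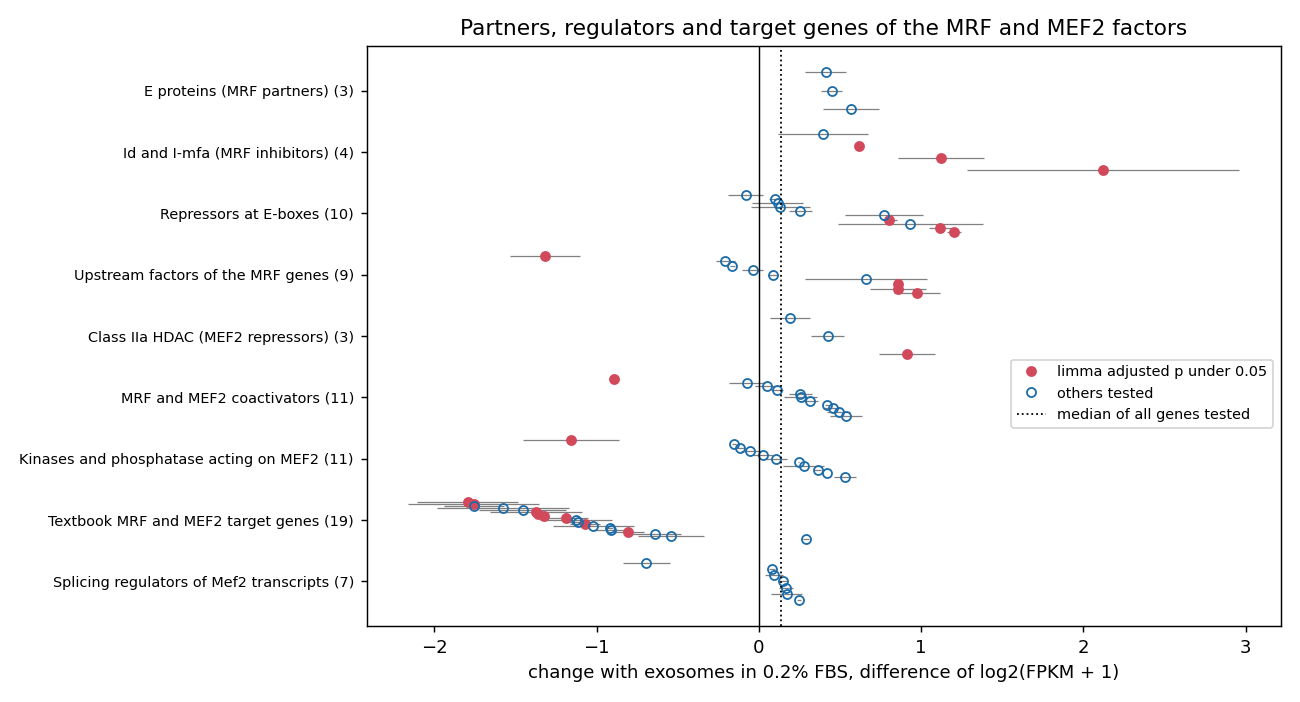
Change with exosomes in 0.2% FBS, as the difference of log2(FPKM + 1), for the tested genes of 9 lists of partners, regulators and targets (number tested in brackets); each point is the mean of replicates 1 and 2 minus 0.2% FBS, grey lines join the 2 replicates, filled points passed limma, and the dotted line is the median of all genes, 0.14. The 19 targets have a median of -1.13 and the 4 Id and I-mfa genes one of 0.87.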

How the data were processed

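C2C12 RNA was sequenced by the study as stranded 75 bp single-end mRNA libraries. The authors trimmed the reads with cutadapt 1.9.1, mapped them to mm10 with TopHat2 2.1.0 and computed FPKM with Cufflinks, and the deposited table of FPKM has a column for each of the 6 libraries. It holds no counts, so depth was estimated and intervals for single values were not computed. Values were used as log2(FPKM + 1). The 10731 genes averaging 1 FPKM or more were tested in limma 3.58.1 (R 4.3.3) with a mean-variance trend, 1 mean per condition and Benjamini-Hochberg adjustment over all of them. The 1 residual degree of freedom comes from the 2 libraries of 0.2% FBS + exosome, and single libraries are assumed to vary like them. Another fit, without 10% FBS, had terms for the medium and for an exosome effect shared by both media. The fold limit of 1 is that of the study. Named list genes passed the limit in both exosome libraries in 0.2% FBS or in both serum reductions, with up to 4 examples a list, and otherwise the 2 most abundant are given. The members, lists and rules were chosen with earlier results of these data known. The lists were E proteins, Id and I-mfa genes, repressors at E-boxes, upstream factors, class IIa deacetylases, coactivators, kinases and phosphatase acting on MEF2, target genes, splicing regulators of Mef2 transcripts and Mef2b. Some upstream factors are not reported here, and they were left out of that list after its values were known. Positions come from GENCODE vM21 and promoter sequences from RefSeq, GRCm38.p6. The limma procedure was run on simulated data, with planted changes larger than those of the members with exosomes in 0.2% FBS. All simulated libraries had a spread modelled on the 2 libraries of 0.2% FBS + exosome. The run therefore does not test the unknown spread of single control libraries. Alternatives were other pseudocounts, scalings, gene filters, limma without a trend, each replicate left out and a replicate block.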

Additional observations from a re-analysis of the deposited data

Results flagged for a closer look

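For 4 members the exosome libraries moved one way in 0.2% FBS, in each replicate, and the opposite way in 2% HS. The share of all genes that did so is not given here. The median of all genes also changed sign, with 0.14 in 0.2% FBS and -0.04 in 2% HS. The difference between the exosome effects, 0.2% FBS minus 2% HS, was 1.48 for Myf5, -1.17 for Myog, -0.89 for Mef2a and -2.07 for Mef2c on the log2 scale. In limma Mef2c passed, with an adjusted p of 0.0185, and Myf5, Myog and Mef2a did not, with adjusted p of 0.0545, 0.238 and 0.155. The call of Mef2c was lost in 3 of 6 other settings, with adjusted p of 0.293 to 0.814, and Myf5 passed in 2, with 0.0437 for a pseudocount of 0.1 and 0.0241 for the 75th percentile scaling. The effect in 2% HS rests on 1 library with exosomes and 1 without, and the 2 media also differ in the kind of serum.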

How the results depend on the processing

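By the fold limit, the count of members past a log2 change of 1 on serum reduction to 0.2% FBS was 1, Myf5, and it became 2, with Mef2c, with a pseudocount of 0.1, with values below 1 FPKM raised to 1 and with scaling to the 75th percentile. Relative to Rpl13a it was 1 again, but this was Mef2c, at 1.30, while Myf5 was at -0.74. With exosomes in 0.2% FBS, Mef2c was past the limit with either replicate alone, and Myf5 with replicate 2 only, at 1.12. For 0.2% FBS + exosome against 2% HS + exosome, Myf5 fell under the limit relative to Rpl13a, at 0.97, where Myog was at -1.26. The share of all genes past the fold limit in these settings is not given here. By limma, members called on serum reduction to 0.2% FBS were 2 instead of 0 with the 75th percentile scaling, where the calls over all genes went from 2 to 310. With exosomes in 0.2% FBS they were 0 instead of 2 with values raised to 1, relative to Rpl13a and with all genes above 0 in any library, and 3, with Myog, without a trend. Over all genes the calls were 1344, and 0, 102 and 0 in those 3 settings and 1033 without a trend. For the difference between media they were 0 instead of 1 in the same 3 settings, and 2, with Myf5, with a pseudocount of 0.1 and with the 75th percentile scaling, while over all genes 125 calls became 0, 29 and 0, and 169 and 377. For 0.2% FBS + exosome against 2% HS + exosome they were 0 instead of 2 with values raised to 1 and with all genes, 1 relative to Rpl13a, where it was Myog and not Mef2c or Myf5, 3, with Mef2a, with a pseudocount of 0.1, and 4 with the 75th percentile scaling and without a trend, while over all genes 1953 calls became 0, 0, 145, 2077, 2099 and 1565. The cause was not tested. The common exosome effect with the title numbers as a replicate block called 0 members, as without it, with a limma adjusted p of 1.00 when rounded for Mef2c. Only replicate 2 carries its number, so the block gave the values found without replicate 2, -0.45 for Mef2c. It is therefore no separate check of pairing. All conditions but 0.2% FBS + exosome have 1 library, so whether the numbers pair the libraries could not be checked. Without a replicate the fit with 1 mean per condition has no residual degrees of freedom, and values alone were taken from it. No call of a single member changed its direction. Of the other values, 411 stayed on the same side or within the replicate spread, 15 became weaker, 11 stronger and 15 moved, most of the last for Myf6. With 1 control library per medium, the spread between control cultures is unknown.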

Other observations

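The remaining lists of factors around the MRF and MEF2 proteins had few calls. Of 11 coactivators, 1 was lower by limma with exosomes in 0.2% FBS, against 4.32% of all genes, and 0 higher, and their median change was 0.26 against 0.14 over all genes. The 1 is Vgll2, a partner of TEAD factors, named after its values were seen, which went from 3.49 FPKM to 1.37 and 1.47 FPKM (log2 change -0.89, limma adjusted p = 0.0218). Smarcd3, the subunit that links chromatin remodelling to Myod1, and Srf had the highest means over the 6 libraries, Srf only just above Smarca4, with changes of 0.05 and 0.46 that missed the threshold (limma adjusted p = 0.871 and 0.0966). Of 14 kinase and phosphatase genes acting on MEF2, 11 were tested and 1 was lower by limma, against 4.32% of all genes. Their median was 0.11, with 0.0024 under scaling to the 75th percentile and -0.14 relative to Rpl13a. The 1 is Camk2a, a calcium-dependent kinase, at 36.3 FPKM in 0.2% FBS and 19.6 and 12.6 FPKM with exosomes (log2 change -1.16, limma adjusted p = 0.0228), and it was past the limit in both serum reductions, with 1.36 and 1.22. The limma calls of Vgll2 and Camk2a were lost relative to Rpl13a, with all genes above 0 in any library and with values below 1 FPKM raised to 1, where both lists had 0 calls. Of 7 splicing regulators of Mef2 transcripts, 0 passed limma with exosomes in 0.2% FBS, against 12.5% of all genes. Their median was 0.15 against 0.14 over all genes, with 0.05 under scaling to the 75th percentile and -0.10 relative to Rpl13a. Under the 75th percentile scaling 1 gene, Rbfox1, was lower by limma (adjusted p = 0.0345), against 7.48% of all genes. Rbfox2 and Celf1, the most abundant, were at 0.25 and 0.09.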
